A study of Mus musculus with 16 samples.

Results

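Plvap, Cd93, Kit, Glp1r and Adgrl3, which mark general capillary (gCap) endothelial cells (ECs) of the mouse lung, were followed in RNA-seq of freshly sorted lung endothelial cells. They were chosen by name, and all 5 were found among the 43346 genes of the deposited table. Adgrl3 is listed there under its older symbol Lphn3 and was matched by its Ensembl identifier. The 16 libraries fall into 4 groups of FVB mice: Young Sham (2 months old, PBS, n = 5), Young Bleo (2 months old, bleomycin, n = 4), Aged Sham (18 months old, PBS, n = 3) and Aged Bleo (18 months old, bleomycin, n = 4). Bleomycin, a cytotoxic agent, is given to mice to produce lung injury followed by fibrosis. By the study's text a single dose went into the trachea, and cells were sorted in what it calls early resolution of the fibrosis. Sham mice received PBS by the same route and were sampled at the same time after it. The bleomycin groups therefore do not show the acute response. By the study's methods all mice, females and males, carried a Col1α1-GFP transgene, in which a collagen promoter drives a fluorescent reporter in collagen-producing cells, and the sort kept CD31+ cells that were negative for CD45, CD326 and GFP. By the study's text the RNA came from the lungs that were also used for chromatin profiling, where each sample was an individual mouse. The labels do not give the sex behind a library.

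The alveolar wall holds intermingled capillary ECs of a general type and of another type, the aerocytes (aCap ECs), which are large cells specialised for gas exchange. gCap ECs carry genes for vasomotor tone and immune contact, and they act as progenitors that proliferate during capillary repair. The 5 genes encode unlike proteins: Plvap forms the diaphragms of caveolae and fenestrae, Cd93 is a transmembrane C-type lectin-like receptor for matrix ligands, Kit is the receptor tyrosine kinase for stem cell factor, Glp1r is the G-protein-coupled receptor for the incretin GLP-1, and Adgrl3 is an adhesion G-protein-coupled receptor of the latrophilin family.

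Library depth ranged from 20.9 to 71.0 mega-counts over all genes, and the 2 shallowest libraries were Young Sham replicate 23 and Aged Sham replicate 13. All 7 pan-endothelial markers examined were present in each group, and their summed level was 2405 to 2825 FPKM in Young Sham, 1710 to 2117 FPKM in Young Bleo, 2214 to 2369 FPKM in Aged Sham and 1571 to 2126 FPKM in Aged Bleo. Cldn5 was the largest part of this sum, with means of 1534, 830, 1377 and 857 FPKM in the same groups. From Young Sham to Young Bleo the means of Tie1, Emcn and Egfl7 rose, whereas those of Pecam1, Cdh5 and Esam fell. FPKM is a fragment count scaled by gene length and library size, so it was used for levels and for comparing genes. Normalised counts, that is counts divided by DESeq2's size factor of each library, were used for fold changes. In these bulk libraries, fewer cells of a type and less RNA per cell cannot be told apart.

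The genes lie on 4 chromosomes of the mm10 build. Plvap (ENSMUSG00000034845) spans chr8:71497754-71511769 on the minus strand, Cd93 (ENSMUSG00000027435) chr2:148436640-148443563 on the minus strand, Kit (ENSMUSG00000005672) chr5:75574916-75656722 on the plus strand, Glp1r (ENSMUSG00000024027) chr17:30901867-30936510 on the plus strand and Adgrl3 (ENSMUSG00000037605) chr5:81020138-81825133 on the plus strand. The gene length behind the Glp1r FPKM was 1480 bases, 25.5% of the 5811 exonic bases of this gene in GENCODE, so that its FPKM depends on the gene model more than that of the other members. Plvap overlaps Gtpbp3 on the opposite strand over 1830 bases, and Adgrl3 overlaps an antisense transcript, Gm16054. These stretches are 13.1% of the Plvap span and 0.810% of the Adgrl3 span. The mean count of Gtpbp3 was 1568 against 86448 for Plvap, whereas that of Gm16054 was 228 against 933 for Adgrl3. As the strand setting of the counting was not stated, reads inside these stretches cannot be assigned to a strand here.

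The sequence just before the start of Kit and Glp1r is shown because the study followed the ETS-family transcription factor ERG. These genes were picked because they deviated together between libraries, as Plvap and Adgrl3 did as well. Whether a shared factor underlies this was not tested. The bases come from the RefSeq promoter windows of build GRCm38.p6, which held 3 of the 5 genes (Kit, Glp1r and Adgrl3). Only bases before the gene start in both the deposited table and GENCODE are printed, from chr5:75574737-75574915 for Kit and from chr17:30901617-30901816 for Glp1r, both on the plus strand. Capitals mark any match, on either strand, to AGGAAG or CCGGAAG, letters that ETS factors bind, or to AGATAA, letters that GATA factors bind.
Kit: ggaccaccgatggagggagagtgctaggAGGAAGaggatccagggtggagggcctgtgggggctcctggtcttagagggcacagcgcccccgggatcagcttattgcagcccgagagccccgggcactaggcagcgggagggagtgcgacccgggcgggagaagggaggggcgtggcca
Glp1r: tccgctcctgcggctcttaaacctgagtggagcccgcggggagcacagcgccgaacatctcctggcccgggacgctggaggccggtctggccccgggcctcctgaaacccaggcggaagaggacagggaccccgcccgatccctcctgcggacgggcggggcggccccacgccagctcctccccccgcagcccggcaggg
The 179 bases of Kit held 1 match, AGGAAG at chr5:75574765-75574770, which no other searched motif overlapped. Of 32507 windows of that length, 21.5% held AGGAAG, 3.31% CCGGAAG and 7.65% AGATAA. In the 200 bases of Glp1r these letters were not found, and the shares among 32514 windows of that length were 23.9%, 4.01% and 8.39%. Of the Adgrl3 windows, which are not printed, 1 held AGGAAG, 78 bases before a start at chr5:81020752. A match describes letters in a window and is not a measured binding site.

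The members spanned a wide range of levels. Plvap averaged 397 FPKM over the 16 libraries and ranked 41 of 43346 genes, at 3.59 times the level of the endothelial adhesion gene Pecam1. Cd93 averaged 29.9 FPKM (rank 1021), Glp1r 15.1 FPKM (rank 2058), Kit 10.1 FPKM (rank 2951) and Adgrl3 0.684 FPKM (rank 11309). Between the lowest and the highest library the level differed 2.59-fold for Plvap, 4.02-fold for Cd93, 4.73-fold for Kit, 5.71-fold for Adgrl3 and 7.28-fold for Glp1r, the widest of the members.

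**Figure D1:**
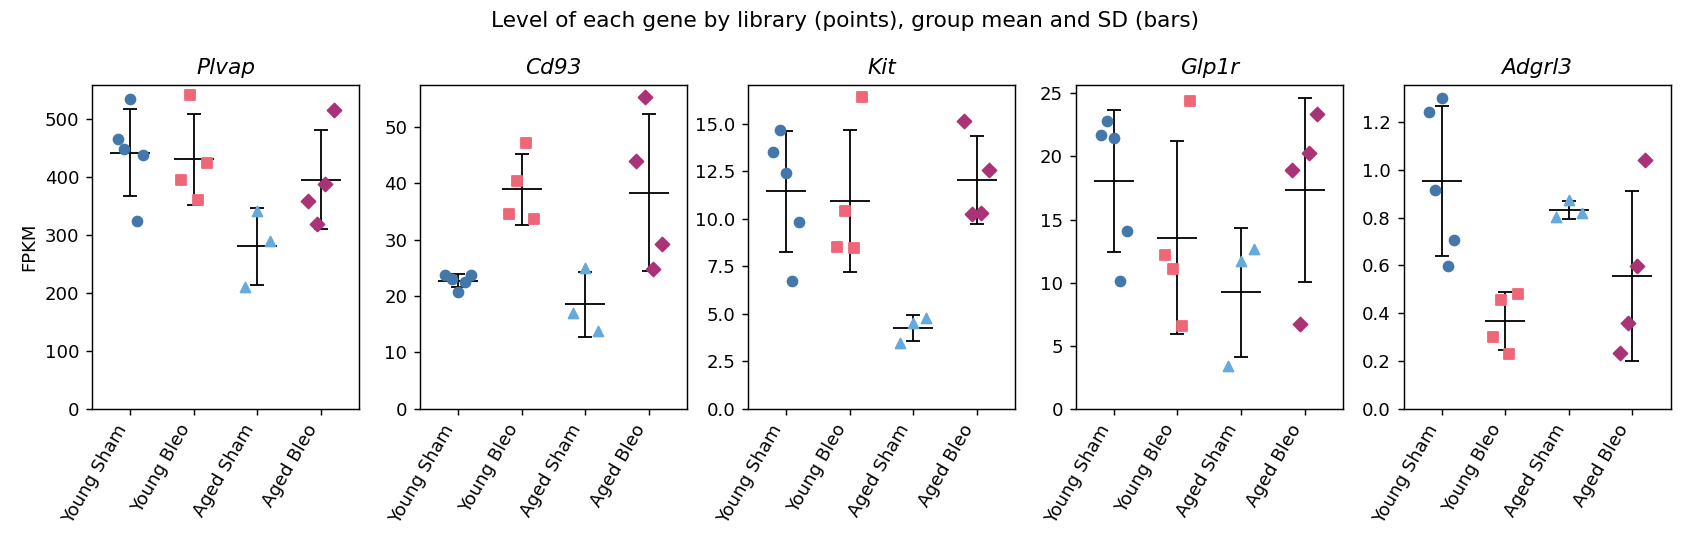
FPKM of each gene in every library (points), by group, with the group mean (horizontal bar) and SD (error bar). Kit lies at 3.47 to 4.78 FPKM in the 3 Aged Sham libraries, under every other library, whereas Cd93 is higher in all Young Bleo libraries (33.6 to 47.2 FPKM) than in all Young Sham libraries (20.8 to 23.8 FPKM).

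Each gene was tested in 5 comparisons of groups and in the difference between the bleomycin responses of aged and young ECs, with DESeq2 fitted to all genes and all 16 libraries. Calls required a p of 0.05 or less after Benjamini-Hochberg adjustment together with a log2 fold change of 0.5 or more in either direction, and the same rule was applied to edgeR's quasi-likelihood test. Between Aged Sham and Young Sham 1 of 5 members was called lower by both tools, against a background of 3.35% of all genes called by DESeq2 and 0.862% by edgeR. Between Young Bleo and Young Sham 1 member was called higher and 1 lower by both tools (background 13.9% by DESeq2 and 9.78% by edgeR). Between Aged Bleo and Young Sham DESeq2 called 1 member higher and edgeR 0 (background 9.72% and 5.69%), with 2 members at an unadjusted p under 0.05 by each tool. Aged Bleo against Aged Sham gave 2 members higher by DESeq2 and 1 by edgeR (background 5.83% and 0.797%). Aged Bleo against Young Bleo gave 0 members by DESeq2 and 0 by edgeR, with 0 at an unadjusted p under 0.05 by either tool (background 1.03% and 0.0437%). The difference of the responses was called for 1 member by DESeq2 and 0 by edgeR (background 0.381% and 0.00546%), with 2 and 1 members at an unadjusted p under 0.05. Several of these comparisons share a control group, so their values are given side by side and were not counted as separate evidence. The median log2 fold change of the 5 genes was -0.52, -0.09, -0.06, 0.79 and 0.18 in the 5 comparisons in this order, beside medians of 0.02, 0.01, 0.02, 0.0061 and 0.02 over all genes tested.

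**Figure D2:**
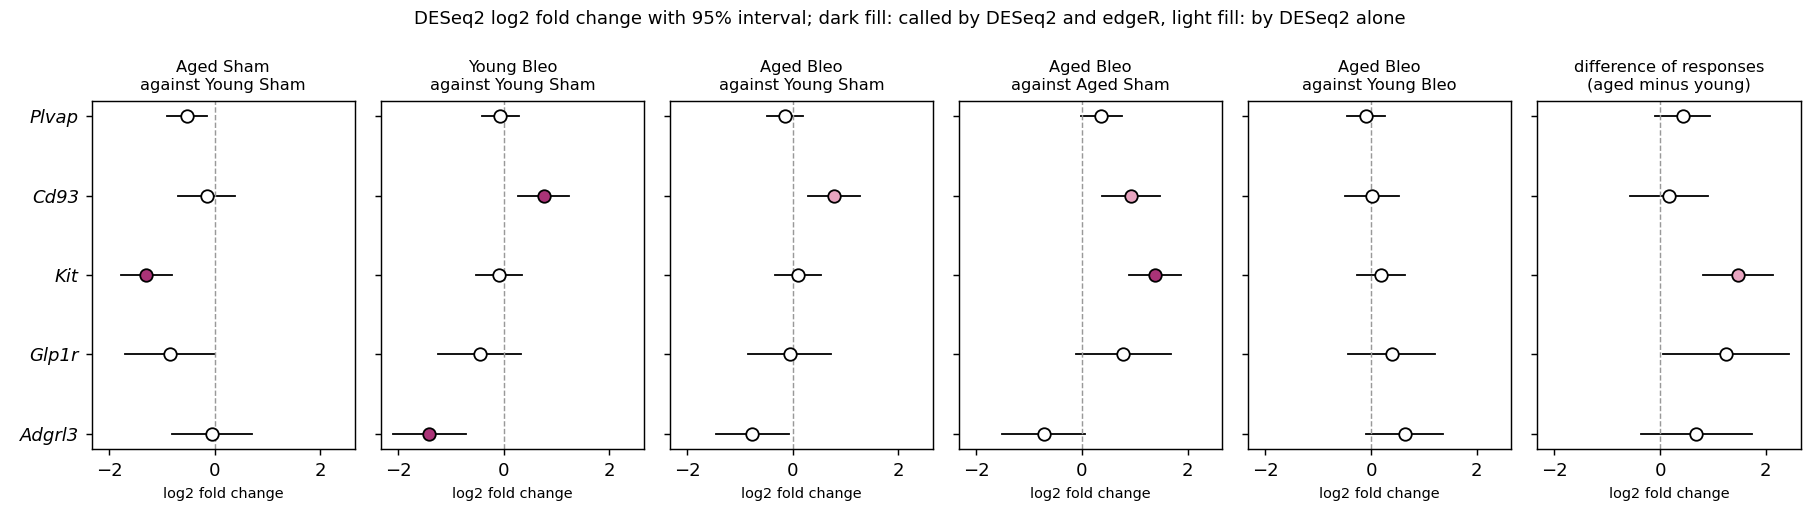
DESeq2 log2 fold changes of normalised counts (circles) with 95% intervals (lines) for the 5 genes in each comparison and for the difference of the bleomycin responses. Dark circles were called by DESeq2 and edgeR, light circles by DESeq2 alone and open circles by neither; Kit is called in both comparisons with Aged Sham, at -1.29 and 1.38.

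Plvap, the diaphragm protein of fenestrae and caveolae, was close to its Young Sham level in both injured groups and had its lowest mean in Aged Sham. In Young Sham its level was 466, 449, 534, 325 and 438 FPKM in replicates 21 to 25. The Young Bleo libraries held 395, 543, 361 and 425 FPKM, the Aged Sham libraries 210, 342 and 289 FPKM, and the Aged Bleo libraries 360, 318, 388 and 516 FPKM. Aged Sham replicates 13 and 15 and Aged Bleo replicate 2 lay under every Young Sham library, and all neighbouring groups overlapped in the order Young Sham, Young Bleo, Aged Bleo, Aged Sham (means 442 ± 75.6, 431 ± 78.9, 396 ± 85.1 and 280 ± 66.6 FPKM, SD). The log2 fold change of Aged Sham against Young Sham was -0.52 (SE 0.191, 95% interval -0.90 to -0.15), which missed the threshold (adjusted p = 0.110 by DESeq2 and 0.213 by edgeR). This value passed it without Aged Sham replicate 14 (-0.70, adjusted p = 0.0385) and without Young Sham replicate 24 (-0.60, adjusted p = 0.0462). The changes were -0.06 (interval -0.40 to 0.28) in Young Bleo and -0.15 (-0.50 to 0.19) in Aged Bleo against Young Sham, and 0.37 (-0.02 to 0.76) in Aged Bleo against Aged Sham.

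The caveolar partners of Plvap were measured from a list of 5 genes. Cav1, which builds the caveolar coat, was not called in any comparison, with log2 fold changes from -0.19 to 0.09 between groups. In Young Bleo against Young Sham, Cav2 fell by 0.65 on the log2 scale (adjusted p = 1.31e-05), the cavin gene Cavin2 fell by 1.14 (adjusted p = 0.00586) and Cavin3 rose by 0.82 (adjusted p = 0.000122), each by DESeq2 and called by edgeR as well. Cavin1, at 0.40, did not reach the fold-change threshold. Cavin2 averaged 253, 219, 181 and 118 FPKM in Young Sham, Aged Sham, Aged Bleo and Young Bleo, and Cav2 had the same order. The summed aerocyte markers had this order as well, and DESeq2 called 9 of 9 aerocyte genes lower in Young Bleo than in Young Sham. The part of aerocytes in the Cav2 and Cavin2 values was not tested.

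Cd93, which binds the matrix protein multimerin 2 and supports endothelial adhesion and sprouting, was higher after bleomycin. Its level in Young Sham was 23.8, 23.1, 20.8, 22.4 and 23.6 FPKM, the narrowest spread of any member in that group (coefficient of variation 5.39%). Young Bleo libraries held 34.6, 40.4, 47.2 and 33.6 FPKM, Aged Sham libraries 16.9, 25.0 and 13.8 FPKM, and Aged Bleo libraries 43.9, 55.3, 24.8 and 29.3 FPKM. All 4 Young Bleo libraries lay above all Young Sham libraries, and so did all 4 Aged Bleo libraries, of which replicate 3 did so by a small margin. Aged Sham replicate 14 overlapped with Aged Bleo replicate 3. In the order of the means, Aged Bleo and Young Bleo (38.3 ± 14.0 and 38.9 ± 6.27 FPKM) were nearest to each other, and Young Sham and Aged Sham (22.7 ± 1.23 and 18.5 ± 5.77 FPKM) overlapped.

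The log2 fold change of Cd93 was 0.76 (SE 0.249, interval 0.27 to 1.24) in Young Bleo against Young Sham, with an adjusted p of 0.0202 by DESeq2 and 0.0492 by edgeR. Against the same Young Sham libraries Aged Bleo stood at 0.78 (SE 0.249, adjusted p = 0.0219), and against Aged Sham at 0.93 (SE 0.283, adjusted p = 0.0240), but edgeR called neither (adjusted p = 0.0596 and 0.0929). The responses of aged and young ECs differed by 0.17 (interval -0.56 to 0.91, adjusted p = 0.937). These calls were close to the threshold. The young response lost it without Young Bleo replicate 18, Young Bleo replicate 19 or Young Sham replicate 23 (lowest 0.63, adjusted p = 0.110). Aged Bleo against Young Sham lost it without Aged Bleo replicate 1 or 2 or Young Sham replicate 22 or 23 (lowest 0.50, adjusted p = 0.210), and Aged Bleo against Aged Sham without Aged Bleo replicate 1 or 2 or Aged Sham replicate 13 or 15 (lowest 0.65, highest adjusted p = 0.169).

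Macrophages and monocytes can express Cd93, and 6 of their markers were summed. Lyz2 made up most of this sum, with means of 32.9, 278, 85.4 and 622 FPKM in Young Sham, Young Bleo, Aged Sham and Aged Bleo. The means of Adgre1, Marco and Csf1r were at most 1.41 FPKM in any group. The sum was 24.9 to 46.8 FPKM in Young Sham, 152 to 431 FPKM in Young Bleo, 62.6 to 164 FPKM in Aged Sham and 194 to 1345 FPKM in Aged Bleo. Within Aged Bleo it was 1345, 776, 346 and 194 FPKM in replicates 1, 2, 3 and 5, and both libraries with the higher sums were also those with the higher Cd93. Young Bleo did not show this order: the sum was 364, 431, 267 and 152 FPKM in replicates 17 to 20, and replicate 19, with the highest Cd93 of the group, had the second-lowest sum. Markers of other ECs moved as well: 4 of 7 arterial genes were called higher in Young Bleo and 5 of 7 in Aged Bleo than in Young Sham, by DESeq2 and by edgeR, and the arterial sum was 113 to 191 FPKM in Young Sham, 278 to 488 FPKM in Young Bleo, 93.8 to 157 FPKM in Aged Sham and 186 to 495 FPKM in Aged Bleo. Of the 9 aerocyte genes, DESeq2 called 9 lower in Young Bleo and 4 lower in Aged Bleo than in Young Sham (edgeR 8 and 0). The lymphatic sum was 677 to 1522 FPKM in Young Bleo and 316 to 606 FPKM in Aged Bleo against 263 to 363 FPKM in Young Sham and 253 to 346 FPKM in Aged Sham, with 2 of 5 genes called higher in Young Bleo than in Young Sham by DESeq2 (1 by edgeR) and 0 in Aged Bleo by either tool. Ccl21a made up most of this sum (means 970 FPKM in Young Bleo and 396 FPKM in Aged Bleo), whereas Prox1 averaged at most 0.679 FPKM in any group. Of 4 genes of systemic or bronchial type ECs, DESeq2 called 3 higher and 1 lower in each bleomycin group than in Young Sham, and edgeR 3 higher in Young Bleo and 2 in Aged Bleo, with 1 lower in each. Of 5 venous genes, 2 were called higher in Young Bleo and 3 in Aged Bleo (edgeR 1 and 3). Ackr1 is counted in both the venous and the systemic or bronchial type list. Both tools called 2 of 4 leukocyte genes higher in Young Bleo and 4 of 4 in Aged Bleo than in Young Sham. Of 4 mesothelial genes, 4 were called higher in Young Bleo by both tools and 3 in Aged Bleo by DESeq2 (edgeR 2). The part of these cells in the Cd93 values was not tested. Among the matrix ligands and relatives of Cd93, Mmrn2, the multimerin it binds, rose by 1.33 in Young Bleo against Young Sham, by 0.91 in Aged Bleo against Young Sham and by 0.87 in Aged Bleo against Aged Sham (adjusted p = 3.71e-08, 0.000502 and 0.00937 by DESeq2; edgeR did not call the last, adjusted p = 0.0673). Igfbp7, a secreted ligand of Cd93, fell by 0.82, 1.02 and 1.05 in the same comparisons (adjusted p = 0.00268, 0.000143 and 0.00175 by DESeq2). The related lectin-like genes Clec14a and Thbd were not called, whereas Cd248, a gene of perivascular cells, fell by 2.27 in Aged Bleo against Young Sham (adjusted p = 5.39e-06 by DESeq2). The pericyte and smooth muscle list stood beside it with 7 of 7 genes called lower in that comparison by DESeq2 and 6 by edgeR.

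Kit was the member called between the sham groups of both ages, with its lowest level in Aged Sham. Its level was 13.5, 14.7, 12.4, 6.74 and 9.81 FPKM in Young Sham and 8.53, 10.4, 8.47 and 16.4 FPKM in Young Bleo. The Aged Sham libraries held 3.47, 4.50 and 4.78 FPKM and the Aged Bleo libraries 15.1, 10.2, 10.3 and 12.5 FPKM. Every Aged Sham library lay under every library of the other groups, which overlapped with each other. The Aged Sham mean was 37.2% of the Young Sham mean (4.25 ± 0.690 against 11.4 ± 3.18 FPKM, SD), whereas Aged Bleo stood at 105% (12.0 ± 2.32 FPKM) and Young Bleo at 95.8% (11.0 ± 3.74 FPKM).

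In Aged Sham against Young Sham the log2 fold change of Kit was -1.29 (SE 0.242, interval -1.76 to -0.81, adjusted p = 3.08e-05 by DESeq2 and 0.0192 by edgeR). In Aged Bleo against Aged Sham it was 1.38 (SE 0.253, interval 0.89 to 1.88, adjusted p = 3.14e-05 by DESeq2 and 0.0442 by edgeR). Both calls were kept in all 8 and all 7 fits that left out 1 library of the compared groups (highest adjusted p = 0.00182 and 0.00115). Young Bleo against Young Sham gave -0.09 (interval -0.53 to 0.34) and Aged Bleo against Young Sham 0.09 (interval -0.34 to 0.53). The difference between the bleomycin responses of aged and young ECs was 1.47 (SE 0.336, interval 0.81 to 2.13), with an adjusted p of 0.0120 by DESeq2. edgeR gave nearly the same size, 1.48, without a call (adjusted p = 0.336), and leaving out the 2 shallowest libraries gave 1.35 (adjusted p = 0.0804). The response in aged ECs was measured against 3 libraries, and the same 3 set the difference with age.

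Kit is also a mast cell gene, so 8 mast cell markers were examined. The tryptase genes Tpsb2 and Tpsab1 and the IgE receptor gene Fcer1a were at 0 in all libraries, and the sum over the list was 0.627 to 0.855 FPKM in Young Sham, 2.20 to 4.92 FPKM in Young Bleo, 0.843 to 2.59 FPKM in Aged Sham and 1.41 to 4.22 FPKM in Aged Bleo. The mean of the list was lowest in Young Sham, where Kit was 6.74 to 14.7 FPKM. Hdc, the histidine decarboxylase gene, made up most of the Young Sham sum, with a mean of 0.620 FPKM in Young Sham, 2.29 FPKM in Young Bleo, 0.622 FPKM in Aged Sham and 1.48 FPKM in Aged Bleo. The protease gene Cpa3 had another order, with 0.0765, 0.0384, 0.505 and 0.125 FPKM in the same groups, its highest mean being in Aged Sham. Mcpt4, another protease gene, averaged 0.0134, 0.683, 0.656 and 1.16 FPKM and was highest in Aged Bleo, as was Kit. Of the 3 mast cell genes that could be tested, Hdc and Mcpt4 were called higher in each bleomycin group than in Young Sham by DESeq2 and edgeR, and Hdc was called higher in Aged Bleo than in Aged Sham by DESeq2 alone. Markers of other cells also differed between the groups: in Aged Sham the platelet list summed to 581 to 3160 FPKM against 255 to 483 FPKM in Young Sham, 58.9 to 447 FPKM in Aged Bleo and 100.3 to 231 FPKM in Young Bleo, and the leukocyte list to 6.41 to 16.1 FPKM against 1.93 to 4.19 FPKM in Young Sham, 5.11 to 6.50 FPKM in Young Bleo and 9.39 to 20.1 FPKM in Aged Bleo. The leukocyte sum had its highest mean in Aged Bleo, as did Kit. The platelet sum was 885, 3160 and 581 FPKM in Aged Sham replicates 13, 14 and 15, where Kit was 3.47, 4.50 and 4.78 FPKM. The mesothelial list summed to 0.0041 to 1.18 FPKM in Young Sham, 4.96 to 15.3 FPKM in Young Bleo, 2.72 to 12.4 FPKM in Aged Sham and 0.506 to 5.50 FPKM in Aged Bleo. Between the sham groups 3 of its 4 genes were called higher in aged ECs by DESeq2 and 2 by edgeR, whereas the platelet and leukocyte lists had 3 genes each called higher by DESeq2 and 0 by edgeR. Of 5 venous genes, 2 were called higher in Aged Sham by DESeq2 and 1 by edgeR. The neutrophil, fibroblast and systemic or bronchial type lists had 1 gene each called higher by DESeq2 and 0 by edgeR. The pericyte and smooth muscle list had 2 of 7 genes called lower in Aged Sham by DESeq2 and 0 by edgeR, with sums of 28.6 to 71.5 FPKM in Young Sham and 17.9 to 31.1 FPKM in Aged Sham. In Aged Bleo against Aged Sham, where Kit was higher, DESeq2 called 3 of 4 platelet genes and 2 of 7 pericyte and smooth muscle genes lower (edgeR 1 and 0), and 3 of 6 macrophage and monocyte genes and 4 of 7 arterial genes higher (edgeR 2 and 0). DESeq2 alone also called 2 of 4 systemic or bronchial type genes and 1 of 5 venous genes higher and 1 of 7 pan-endothelial genes lower. Both tools called 1 of 4 fibroblast genes lower. Of 9 aerocyte genes 0 were called, at a median log2 fold change of -1.19. The part of these cells in the Kit values was not tested.

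Kitl, the ligand of Kit, moved in another comparison. It averaged 48.3 ± 4.05 FPKM in Young Sham, 16.8 ± 12.1 FPKM in Young Bleo, 45.8 ± 10.6 FPKM in Aged Sham and 24.7 ± 15.2 FPKM in Aged Bleo. In Young Bleo against Young Sham it fell by 1.58 on the log2 scale (adjusted p = 0.000647 by DESeq2 and 0.0203 by edgeR), whereas Aged Sham against Young Sham gave 0.05 (adjusted p = 0.977). Aged Bleo gave -0.98 against Young Sham and -1.03 against Aged Sham, and neither was called (adjusted p = 0.0725 and 0.142). The aerocyte markers had the same order of group means as Kitl, with sums over 9 genes of 2475, 2221, 1062 and 674 FPKM in Young Sham, Aged Sham, Aged Bleo and Young Bleo, and the part of aerocytes in the Kitl values was not tested. Of the signalling genes downstream of Kit, Pik3r1, a regulatory subunit of PI3-kinase, rose by 0.85 in Young Bleo and by 0.68 in Aged Bleo against Young Sham (adjusted p = 0.00500 and 0.0452 by DESeq2; edgeR called the first alone, adjusted p = 0.0232 and 0.0862), and Grb2, Sh2b3, Stat5a and Stat5b were not called.

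Glp1r, the incretin receptor, was not called in any comparison by DESeq2 or edgeR and varied widely between libraries of a group (coefficients of variation 31.1% to 56.3%). Its level was 21.7, 22.8, 21.5, 10.2 and 14.1 FPKM in Young Sham, 12.2, 11.1, 6.55 and 24.4 FPKM in Young Bleo, 3.36, 11.7 and 12.6 FPKM in Aged Sham, and 18.9, 6.71, 20.2 and 23.3 FPKM in Aged Bleo. Single libraries stood low in Aged Sham (replicate 13) and Aged Bleo (replicate 2) and 1 stood high in Young Bleo (replicate 20), and all groups overlapped. The order of the means was Young Sham, Aged Bleo, Young Bleo, Aged Sham (18.1 ± 5.62, 17.3 ± 7.30, 13.6 ± 7.64 and 9.23 ± 5.11 FPKM). The log2 fold change was -0.85 (SE 0.437, interval -1.70 to 0.01, adjusted p = 0.353) in Aged Sham against Young Sham and 0.79 (SE 0.457, interval -0.11 to 1.68, adjusted p = 0.352) in Aged Bleo against Aged Sham. The response differed between ages by 1.24 (SE 0.608, interval 0.05 to 2.43, adjusted p = 0.583). In both comparisons with Aged Sham the interval of Glp1r covered the fold change measured for Kit.

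Of the Glp1r-related genes, Dpp4, the peptidase that cleaves GLP-1, fell by 1.42 in Young Bleo and by 1.12 in Aged Bleo against Young Sham (adjusted p = 0.000206 and 0.00729 by DESeq2, 0.0122 and 0.0498 by edgeR). Dpp4 averaged 15.4, 7.99, 7.14 and 5.91 FPKM in Young Sham, Aged Sham, Aged Bleo and Young Bleo, the order of the aerocyte sums. The part of aerocytes in the Dpp4 values was not tested. Gcg, which encodes the GLP-1 precursor, was at 0 in the libraries, the relatives Gipr, Gcgr and Glp2r were too low to be tested, and the cAMP sensors Rapgef3 and Rapgef4 were not called.

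Adgrl3, the latrophilin, was low in bleomycin-treated young ECs. Its level was 1.24, 0.917, 1.30, 0.596 and 0.706 FPKM in Young Sham, 0.299, 0.455, 0.228 and 0.479 FPKM in Young Bleo, 0.804, 0.876 and 0.818 FPKM in Aged Sham, and 0.232, 0.360, 0.596 and 1.04 FPKM in Aged Bleo. All Young Bleo libraries lay under all Young Sham and all Aged Sham libraries. Aged Bleo was spread over both ranges, with replicates 1 and 2 at the Young Bleo level and replicate 5 among the sham libraries (coefficient of variation 63.9%). The log2 fold change of Young Bleo against Young Sham was -1.41 (SE 0.353, interval -2.10 to -0.72, adjusted p = 0.00127 by DESeq2 and 0.0212 by edgeR), and it was called in all 9 fits that left out 1 of these libraries. Aged Bleo stood at -0.77 (SE 0.352, adjusted p = 0.155) against Young Sham and at -0.72 (SE 0.401, adjusted p = 0.320) against Aged Sham. Aged Bleo replicate 5 decided both values: without it they were -1.24 (adjusted p = 0.00244) and -1.19 (adjusted p = 0.0177). Aged Sham and Young Sham differed by -0.05 (interval -0.80 to 0.70), and the responses of aged and young ECs by 0.69 (interval -0.36 to 1.73, adjusted p = 0.778).

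The aerocyte markers stood beside Adgrl3 in the bleomycin groups. Their sum over 9 genes was 2260 to 2722 FPKM in Young Sham and 1704 to 2776 FPKM in Aged Sham, against 301, 393, 537 and 1465 FPKM in Young Bleo replicates 17 to 20 and 289, 474, 1931 and 1554 FPKM in Aged Bleo replicates 1, 2, 3 and 5. In Aged Bleo replicates 3 and 5 were the highest in both measures. Young Bleo replicate 20 was also the highest in both, whereas replicate 19 had the lowest Adgrl3 of its group at a larger aerocyte sum than replicates 17 and 18. In Young Bleo 9 of 9 aerocyte genes were called lower than in Young Sham by DESeq2 (8 by edgeR). The part of aerocytes in the Adgrl3 values was not tested. Adgrl3 binds FLRT proteins and teneurins on neighbouring cells. Flrt2 was low (mean 0.12 ± 0.05 FPKM in Young Sham and 0.30 ± 0.19 FPKM in Young Bleo) and was not called (1.35, adjusted p = 0.0666), and Tenm4 was at 0 in the libraries. Of the other adhesion receptors, Adgrl4, which is expressed in endothelium, rose by 0.93 in Young Bleo and by 1.05 in Aged Bleo against Young Sham and by 0.74 in Aged Bleo against Aged Sham (adjusted p = 0.000426, 7.47e-05 and 0.0455 by DESeq2; edgeR called the first and second). Adgrl2 fell by 0.72 in Young Bleo against Young Sham (adjusted p = 0.0254 by DESeq2, 0.0708 by edgeR), and Adgrl1 was not called.

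The members were then compared within groups, using for each library the deviation of its log2 normalised count from the group mean. Kit and Glp1r deviated together (Pearson r = 0.673, permutation p = 0.00348, adjusted p = 0.0174 over 10 pairs; Spearman rho = 0.650, permutation p = 0.00796, adjusted p = 0.0398). Plvap and Adgrl3 did so as well (r = 0.667, permutation p = 0.00321, adjusted p = 0.0174; rho = 0.709, permutation p = 0.00237, adjusted p = 0.0237). Without the 2 libraries farthest from the median of the first gene, r was 0.565 for Kit and Glp1r and 0.507 for Plvap and Adgrl3. In Young Sham replicate 24 all members but Cd93 were under the group mean, by 0.63 for Kit and 0.68 for Glp1r. The other 8 pairs had an adjusted p of at least 0.1996 for r and 0.108 for rho, and the r of Cd93 with the other members was between -0.540 and -0.0807. Libraries were permuted within groups, two-sided, with 100000 permutations, and the 16 points share size factors and whatever cell mixture differs between libraries. How many pairs among all genes deviate together this strongly was not measured. Genes picked for likeness to a member reached a within-group r of 0.958 (Glp1r and Gm20662). The values are therefore not read as particular to these pairs.

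**Figure D3:**
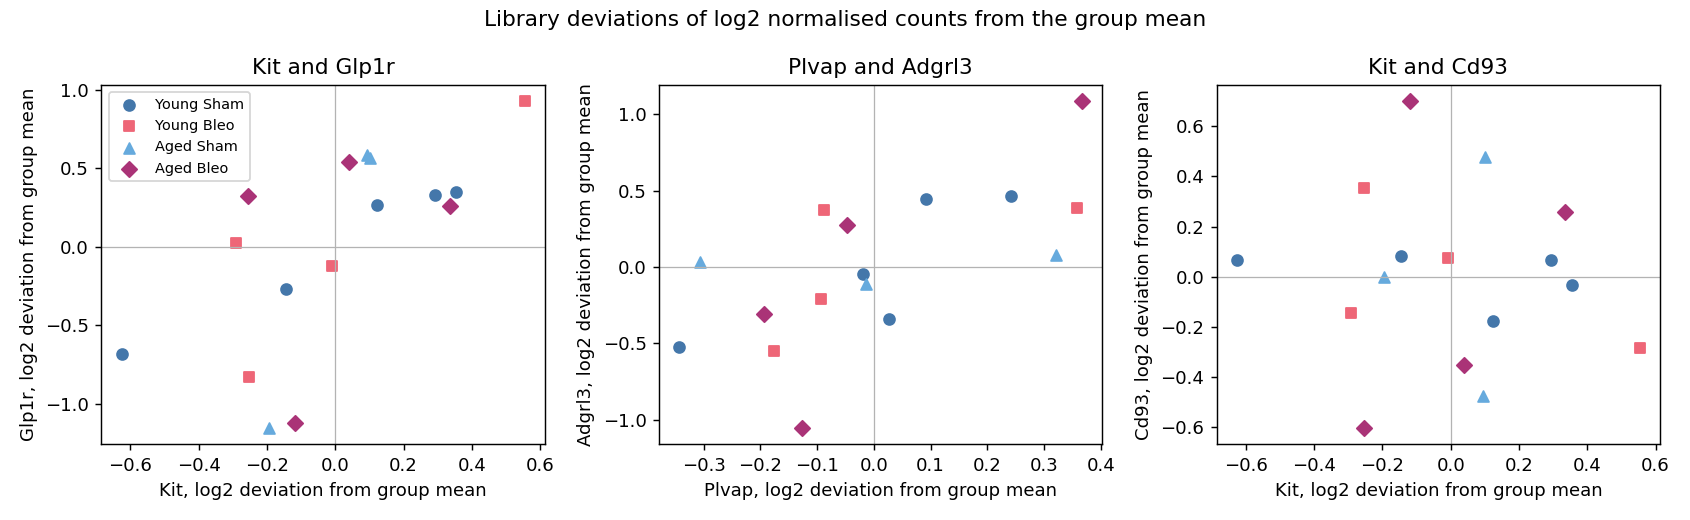
Deviation of each library's log2 normalised count from its group mean, for Kit and Glp1r, Plvap and Adgrl3, and Kit and Cd93, with 1 point per library and a symbol per group. The points of the first and second panels run from lower left to upper right (r = 0.673 and 0.667), whereas those of Kit and Cd93 do not (r = -0.0807).

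Of 8 other genes of gCap ECs, the angiopoietin receptor Tek and the apelin receptor Aplnr stood beside Kit. Aplnr averaged 28.8 ± 6.77 FPKM in Young Sham, 39.0 ± 12.8 FPKM in Young Bleo, 10.4 ± 3.56 FPKM in Aged Sham and 18.0 ± 4.83 FPKM in Aged Bleo. For both genes DESeq2 called Aged Sham lower than Young Sham (Tek adjusted p = 0.0789 by edgeR). The study also lists Kit, Tek and Aplnr among genes lower in aged lung ECs. Gpihbp1, Cxcl12 and Btnl9 had higher mean normalised counts in Aged Sham (32486 against 29028, 9485 against 9098 and 258 against 212). Ptprb, Sema3c and Cd36 had lower ones (15046 against 18273, 17366 against 23817 and 165432 against 176969). None of these genes was called between the sham groups. Tek, Ptprb and Cxcl12 were called higher in Aged Bleo than in Aged Sham by DESeq2, and Tek alone by edgeR (adjusted p = 0.0445). In Young Bleo against Young Sham, Gpihbp1, which anchors lipoprotein lipase in capillaries, rose by 1.03 (adjusted p = 0.00551) and the chemokine gene Cxcl12 by 3.35 (adjusted p = 7.54e-09). In Aged Bleo against Young Sham the same genes were called, with 0.91 for Gpihbp1 (adjusted p = 0.0242 by DESeq2, 0.0664 by edgeR) and 2.66 for Cxcl12 (adjusted p = 9.28e-06 by DESeq2, 0.00942 by edgeR). In Aged Bleo against Young Bleo, Aplnr was the gene called (-1.08, adjusted p = 0.0116 by DESeq2, 0.212 by edgeR). Sema3c, Btnl9 and Cd36 were not called in any comparison. The median log2 fold change over the 8 genes was -0.19, 0.42, 0.34, 0.71 and -0.07 in the 5 comparisons in the order above.

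**Figure D4:**
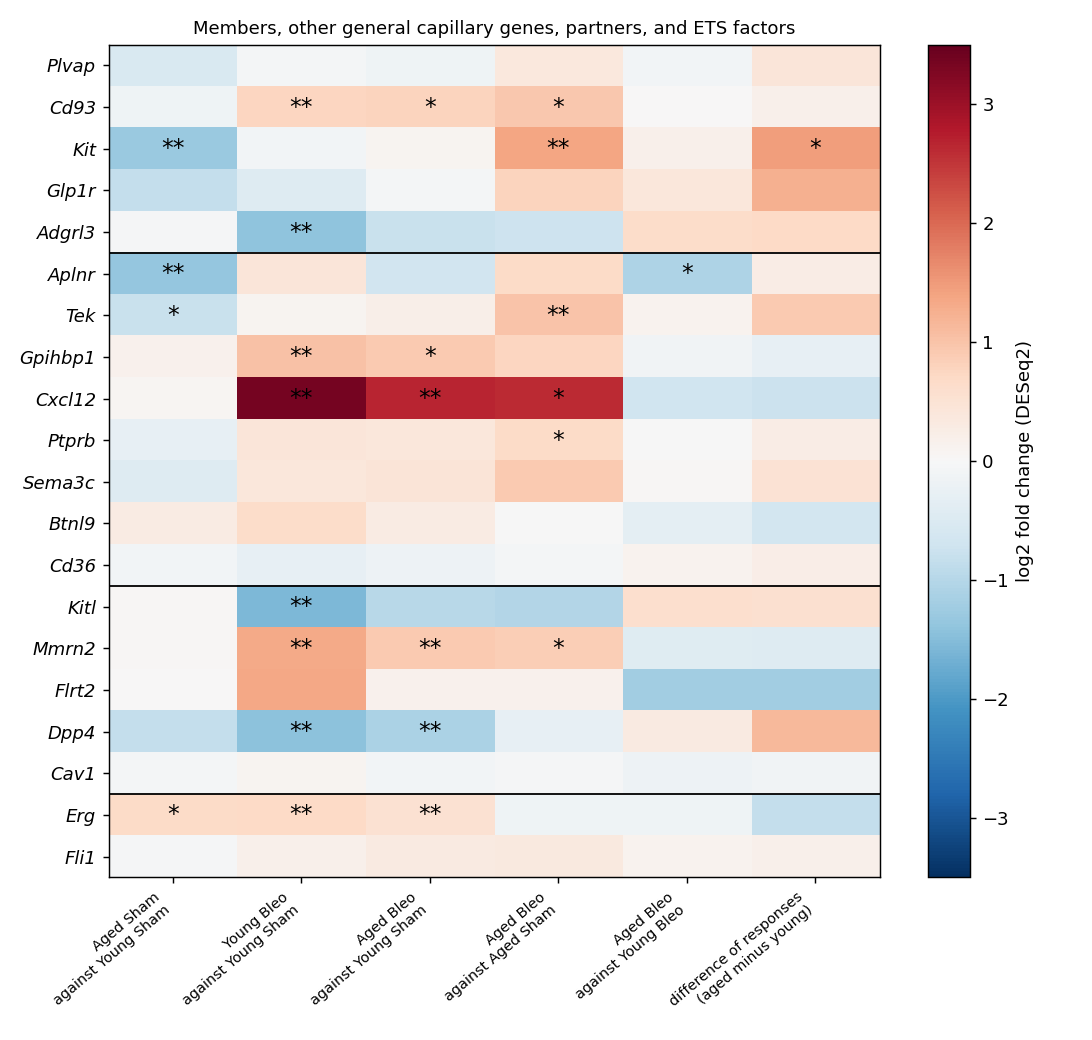
DESeq2 log2 fold changes (colour) of the 5 members, 8 other gCap genes, the direct partners and the ETS factors Erg and Fli1 in each comparison, with lines between the 4 sets. A double asterisk marks a call by DESeq2 and edgeR and a single one a call by DESeq2 alone. Kit, Tek and Aplnr are blue in Aged Sham against Young Sham (-1.29, -0.79 and -1.34), and no other gCap gene was called there.

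Erg, which encodes the endothelial ETS factor that the study examined, and its relative Fli1 were read beside the members. Erg averaged 3.48 ± 0.81 FPKM in Young Sham, 5.67 ± 0.42 FPKM in Young Bleo, 4.99 ± 0.19 FPKM in Aged Sham and 4.95 ± 0.34 FPKM in Aged Bleo. Against Young Sham it rose by 0.67 in Aged Sham, 0.69 in Young Bleo and 0.53 in Aged Bleo (adjusted p = 0.00304, 0.000108 and 0.00613 by DESeq2; 0.0558, 0.00750 and 0.0370 by edgeR). Fli1 gave -0.05, 0.17 and 0.31 and was not called.

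The genes most like each member over the 16 libraries were taken from 13773 genes by Pearson correlation of log2 normalised counts, as a description. For Kit these were Tek (r = 0.923), Cep68 (0.909) and Zfp282 (0.907), and for Glp1r Exoc7 (0.954), Hipk2 (0.937) and Gm20662 (0.934). For Plvap they were Skida1 (0.878), Dennd2a (0.851) and Tdg (0.831), for Cd93 Tmem173 (0.942), 4631405J19Rik (0.941) and Atp13a3 (0.932), and for Adgrl3 Gpr17 (0.940), 1700061H18Rik (0.933) and A830073O21Rik (0.920). No member was among the genes nearest to another member. With the group means removed, r was 0.768 for Kit and Tek and 0.955 for Glp1r and Exoc7.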

How the data were processed

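RNA-seq of sorted lung ECs was analysed in 16 libraries of 4 groups, taken from the labels' titles, ages and treatments. The authors aligned reads to mm10 with STAR 2.5.2b and counted them per gene with featureCounts, and they deposited raw counts and FPKM in a single table. The FPKM were scaled by the authors by gene length and by a library total that exceeds the summed counts of all genes. The annotation release and strand setting are not given in the sources used here. The labels name a SMART-Seq v4 and Nextera preparation and the study's methods a TruSeq poly(A) one.

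DESeq2 1.42.0 (R 4.3.3; Wald test, unshrunken log2 fold change, group as the sole factor, 1 fit over all libraries) was the main test, as in the study's methods, and edgeR 4.0.16 was run beside it. Alternatives were limma 3.58.1 (voom, and trend on log2 FPKM with a pseudocount of 0.1 or 1), other size factors, a filter of 10 counts in 3 libraries, the compared groups alone and leaving out each library; leaving out the 2 shallowest libraries was added after seeing the data. Scripts were tested on simulated data. Each library counted as 1 replicate on the basis of the study's text on individual mice. Pairs of libraries of a group differed by more than sampling noise (chi-square per degree of freedom 32.8 to 428). This cannot show that they came from separate mice, as separate preparations of the same mouse could differ as well. All 5 members were named, with the partners, other gCap genes and cell markers from lists of known roles, giving called genes and direct ligands; members and lists were chosen with earlier results of these data known. Likeness used genes with a mean normalised count of at least 50.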

Additional observations from a re-analysis of the deposited data

Results flagged for a closer look

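In Young Bleo, the Plvap normalised count of replicate 18 was 109268, against 75422 to 80243 in the other 3 libraries, a gap to the nearest of them that is large for the group's range. Chance marks about 1 in 20 groups in this way, and 15 groups were examined. Without this library the Plvap change of Young Bleo against Young Sham was -0.19, not called by DESeq2.

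The bleomycin response of Kit differed between ages by 1.47 on the log2 scale. Normalised counts were 2382 to 2925 in Aged Sham and 5909 to 8894 in Aged Bleo, against 4215 to 8314 in Young Sham and 4984 to 8963 in Young Bleo. The interaction was called by DESeq2 in all 16 fits that left out 1 library (adjusted p up to 0.0498) and was not called by edgeR (adjusted p = 0.336) or limma (adjusted p = 0.260 to 0.319).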

How the results depend on the processing

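No paired analysis was possible because the replicate numbers do not repeat between groups. Among the alternatives that kept all libraries, changed the scaling or tool, or left out the 2 shallowest libraries, 236 values kept their direction and call, 17 lost a call and 12 changed sign; leaving out single libraries gave 251, 11 and 19, and 4 gained a call. The calls of Kit in Aged Sham against Young Sham and Aged Bleo against Aged Sham, and of Adgrl3 in Young Bleo against Young Sham, were kept under all alternatives.

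In Young Bleo against Young Sham, voom and leaving out the 2 shallowest libraries called 1 member. In Aged Bleo against Young Sham, edgeR, voom, both FPKM fits and leaving out the 2 shallowest libraries called 0. In Aged Bleo against Aged Sham, edgeR, voom, FPKM with a pseudocount of 1, the compared groups alone and leaving out the 2 shallowest libraries called 1. For the difference of the responses, edgeR, voom, both FPKM fits and leaving out the 2 shallowest libraries called 0. Leaving out single libraries gave 1 to 2 members in Aged Sham and in Young Bleo against Young Sham, 0 to 2 in Aged Bleo against Young Sham and 1 to 3 in Aged Bleo against Aged Sham.

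Size factors from pan-endothelial markers shifted all log2 fold changes by 0.18, 0.27, 0.30, 0.12 and 0.04 in the 5 comparisons and by -0.15 in the difference of the responses. The values that changed sign by this were not called: Cd93 0.024 and Adgrl3 0.12 in Aged Sham, Plvap 0.20 and Kit 0.16 in Young Bleo, and Plvap 0.15 and Glp1r 0.25 in Aged Bleo, all against Young Sham. Adgrl3 in Aged Sham against Young Sham was 0.014 by voom and 0.063 without the 2 shallowest libraries, where Plvap in Young Bleo was 0.0052. Cd93 in Aged Bleo against Young Bleo was -0.049 by voom and -0.082 and -0.079 in the FPKM fits with a pseudocount of 0.1 and 1. Leaving out single libraries gave ranges across 0 for uncalled values: Cd93 -0.42 to 0.053 and Adgrl3 -0.16 to 0.077 in Aged Sham, Plvap -0.19 to 0.0031 and Kit -0.31 to 0.0066 in Young Bleo, Kit -0.037 to 0.18 and Glp1r -0.23 to 0.20 in Aged Bleo, all against Young Sham; Plvap -0.23 to 0.039 and Cd93 -0.26 to 0.20 in Aged Bleo against Young Bleo; and Cd93 -0.11 to 0.45 for the difference of the responses. The causes were not tested. Adgrl3 had the lowest mean count of the members, 933; whether depth limited its precision was not tested.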
